A study of Rattus norvegicus with 4 samples.

Results

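The genes described here carry glucose into testis cells, break it down to pyruvate and export lactate: the glucose transporters Slc2a1 and Slc2a3, the hexokinases Hk1 and Hk2, the phosphofructokinase Pfkm, the aldolase Aldoa, the pyruvate kinase Pkm, the lactate dehydrogenases Ldha and Ldhb, and the lactate transporter Slc16a1. They were chosen by name, and every probe set whose platform annotation gives 1 of these symbols and no other was taken, 19 of the 8799 probe sets on the array. These 19 stood for 9 genes, because no probe set has Ldha as its single symbol, and Ldha therefore has no value here. The RNA was testis RNA of Sprague Dawley males, outbred laboratory rats, and each RNA sample was hybridised to 1 Affymetrix rat U34 array of set A. The FSH antibody group (2 arrays) had received an antibody against rat follicle-stimulating hormone, raised in sheep, for 4 days, and the control IgG group (2 arrays) a sheep immunoglobulin for the same time. The labels disagree on age: the treatment protocol starts injections on day 18 and collects on day 22, the series design starts them on day 14, the source names of all 4 samples give postnatal day 18, and postnatal day 4 stands in the title of antibody replicate 2. They also describe each RNA sample as a pool of about 20 organs, called ovaries, while each source name gives the testis of 1 numbered rat, so the p-values measure the spread between RNA samples of unsettled origin.

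Sertoli cells, the nurse cells of the seminiferous tubule, take up glucose, convert much of it to lactate and hand the lactate to spermatocytes and spermatids, which use it as fuel. FSH acts on Sertoli cells through a receptor that raises cyclic AMP, and in cultured rat Sertoli cells it is known to raise glucose uptake and lactate output. The arrays measured whole testis, where fewer cells of a type and less RNA per cell cannot be told apart.

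The labelled tissue was checked against markers of its cells. The Sertoli cell product clusterin (Clu) was at 6439.6 and 7459.2 on the antibody arrays and 6776.2 and 6770.0 on the control arrays, in intensity units of arbitrary scale. The meiotic protein Sycp3 was at 795.0 and 574.2, against 750.6 and 922.3, and the Leydig cell enzyme Cyp17a1 at 1361.0 and 1653.3, against 1730.4 and 1651.1 on the control arrays. Inha, which encodes the alpha subunit of inhibin and is made in Sertoli cells under FSH, was at 804.3 and 682.0 on the antibody arrays and 1588.4 and 1224.2 on the control arrays on its brighter probe set, a log2 change of −0.90 ± 0.19 (limma, adjusted p = 0.122). Its other probe set gave −0.49 ± 0.24. The median intensity of the whole array was 38.8 and 40.4 for the antibody and 39.2 and 36.5 for the controls. With 2 arrays a group, their number sets the precision of each value.

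No change in the transcripts of glucose uptake and glycolysis was detected between the FSH antibody and the control immunoglobulin. The lactate transporter Slc16a1 had the lowest change, which did not pass the test. An equal level is not shown, since the 95% intervals by limma were wide, as from 0.751-fold to 1.39-fold for Slc2a1 S68135_s_at. Changes are given as the antibody group minus the control group on the log2(intensity + 16) scale ± SE, which understates the change of dim probe sets. Of the 19 probe sets, 15 passed the filter on dim signal and were tested, covering all 9 genes. By limma with Benjamini-Hochberg adjustment over all 5252 tested probe sets, 0 of the 15 had an adjusted p under 0.05, where 0.267% of all tested probe sets did. At an unadjusted p under 0.05 there was 1, a Slc16a1 probe set, against 8.11% of all tested probe sets (4.13% for lower values alone). The median change of the 15 was 0.02, and that of all tested probe sets was 0.03. Of the 15, 14 changed by less than 1.2-fold in either direction (93.3%), against 72.6% of all tested probe sets. The members were also brighter, with a median log2 value of 7.87 against 6.87, and the part of brightness in that share was not tested. The groups did not overlap for 5 of the 15, 3 with higher and 2 with lower antibody values. This compares with 37.4% of all tested probe sets, 21.9% higher and 15.5% lower.

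The count of 14 probe sets called on the whole array depended on single arrays. It was 0 without control IgG replicate 1, 0 without control IgG replicate 2, 154 without FSH antibody replicate 1 and 93 without FSH antibody replicate 2, and 0 with quantile normalization or with no filter.

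**Figure D1:**
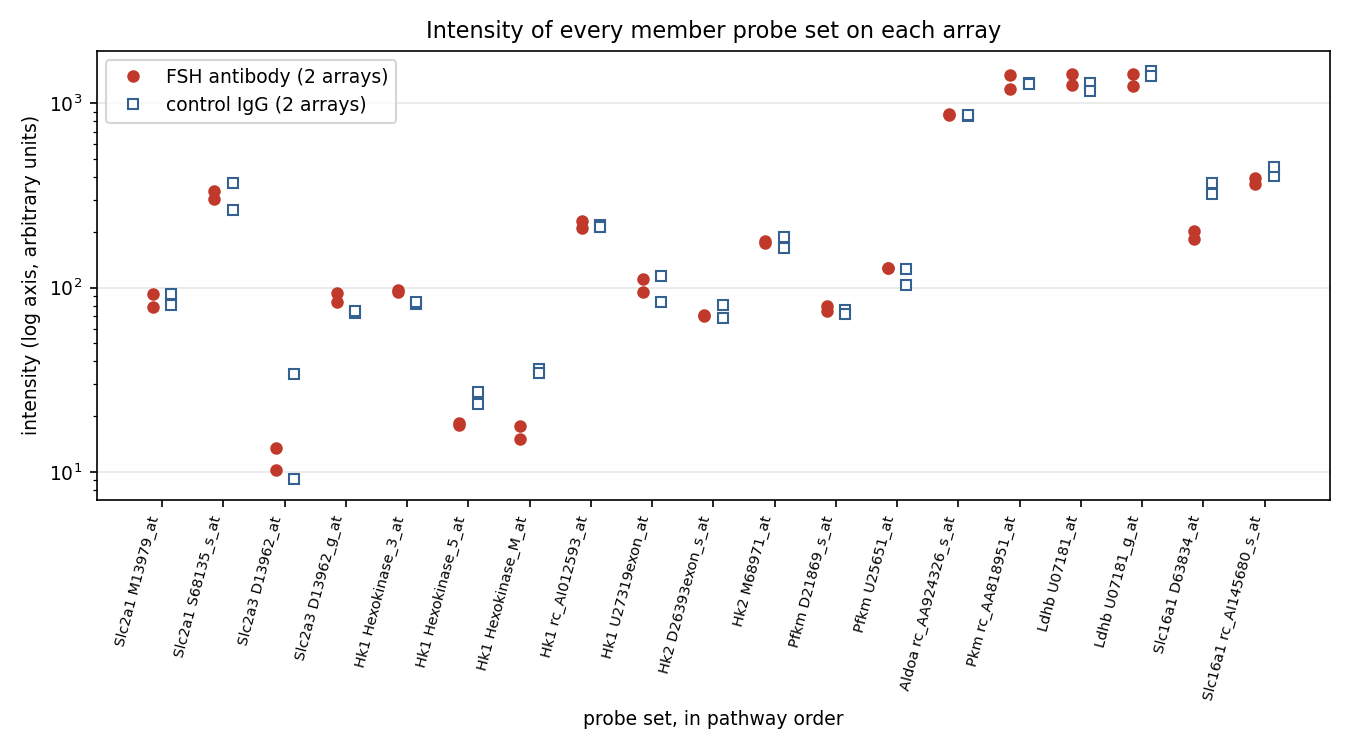
Intensity (log axis, arbitrary units) of the 19 member probe sets in pathway order, with filled circles for the 2 FSH antibody arrays and open squares for the 2 control IgG arrays. The antibody points of Slc16a1 D63834_at, at 204.0 and 183.5, sit below its control points at 321.4 and 368.6, while most other probe sets have points side by side; levels of different probe sets are not comparable.

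Glucose enters through facilitative transporters, of which Slc2a1 (GLUT1) is the form found in most tissues. On probe set S68135_s_at, Slc2a1 was at 304.6 and 336.8 on the antibody arrays and 265.4 and 370.2 on the control arrays. The control values enclosed the antibody values, and the change was 0.03 ± 0.20 (95% interval −0.41 to 0.47, limma, adjusted p = 0.980). On M13979_at it was at 91.8 and 78.8 after the antibody and 92.6 and 80.6 in the controls (−0.02 ± 0.18). Without 1 array or another, the direction of both Slc2a1 probe sets turned.

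Slc2a3 (GLUT3) is a glucose transporter best known from neurons, with a high affinity for glucose. On D13962_g_at it was at 93.3 and 83.7 on the antibody arrays and 72.8 and 75.1 on the control arrays. Both antibody values were higher, by 0.21 ± 0.17 (95% interval −0.18 to 0.60), and the adjusted p by limma was 0.825. The other probe set from the same sequence, D13962_at, was too dim to be tested, at 10.2 and 13.5 after the antibody and 9.1 and 33.8 in the controls. Its log2 change was −0.35, the opposite direction, with 1 control array standing above the other 3.

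The log2 difference of Slc2a3 over Slc2a1 within each array, on their brightest probe sets, was −1.55 and −1.82 after the antibody and −1.66 and −2.08 in the controls. The groups overlapped, and the difference between them was 0.19 (two-sided exact permutation test, p = 0.667, adjusted p = 1 over 2 such comparisons), where 2 arrays against 2 allow no p below 0.333.

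Hexokinases trap glucose in the cell as glucose 6-phosphate. Hk1, the form found in most tissues and bound to mitochondria, was at 229.1 and 210.8 on the antibody arrays and 217.5 and 213.6 on the control arrays on rc_AI012593_at (0.03 ± 0.17). On U27319exon_at it was at 94.2 and 111.5, against 115.7 and 83.8 in the controls (0.05 ± 0.20). The groups overlapped on both, and the adjusted p values by limma were 0.979 and 0.970.

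The array also carries 3 quality-control probe sets along the Hk1 transcript, placed at its 5′ end, middle and 3′ end, which were left out of the main test. The 3′ set was at 97.0 and 94.6 on the antibody arrays and 81.2 and 83.3 on the control arrays. The middle set was at 15.1 and 17.7, against 36.1 and 34.3, and the 5′ set at 18.0 and 18.4, against 23.4 and 27.1 in the controls. Groups did not overlap on any of the 3, with the 3′ set higher and the middle and 5′ sets lower after the antibody. Of all tested probe sets, 37.4% did not overlap, 21.9% higher and 15.5% lower. Tested together with the rest, a choice made after seeing the data, the middle set gave −0.66 ± 0.21 (limma, adjusted p = 0.480) and the 3′ set 0.19 ± 0.17 (adjusted p = 0.848). The 5′ set stayed below the filter.

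Within each array the log2 difference of the Hk1 3′ set over the middle set was 1.86 and 1.71 after the antibody, against 0.90 and 0.98 in the controls. The Hk1 3′ over 5′ difference was smaller between groups, at 1.733 and 1.685 after the antibody, against 1.303 and 1.204 in the controls. The same difference of glyceraldehyde 3-phosphate dehydrogenase (Gapdh) was −0.07 and −0.08 after the antibody and 0.06 and −0.16 in the controls. The groups did not overlap for either Hk1 difference. The Gapdh 3′ over 5′ difference of the 2 antibody arrays lay between those of the 2 control arrays. The middle and 5′ sets of Hk1 were dim, and the part of background signal was not tested.

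**Figure D2:**
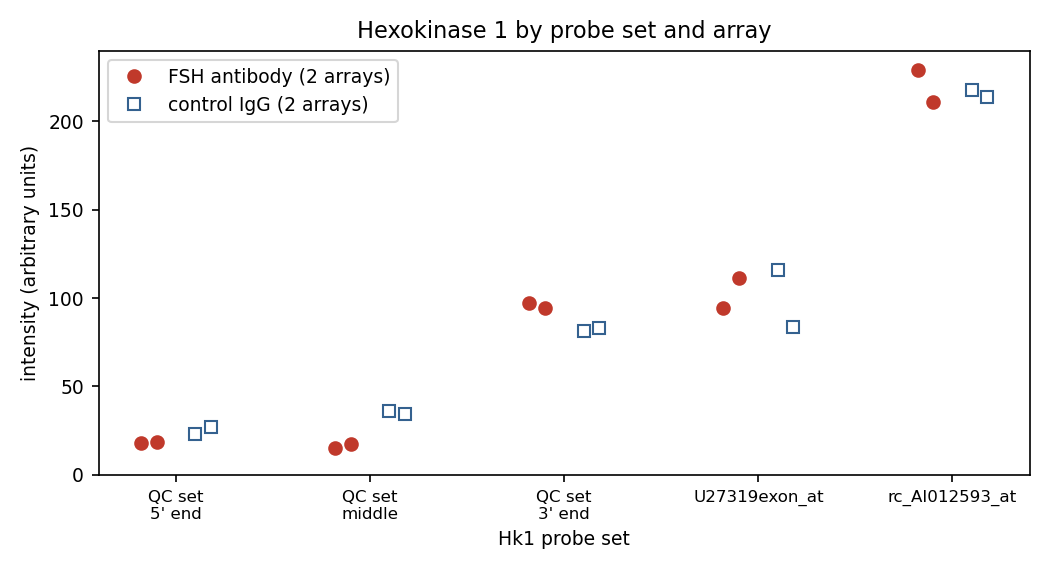
Intensity (arbitrary units, axis from 0) of the 5 Hk1 probe sets, with filled circles for the 2 FSH antibody arrays and open squares for the 2 control IgG arrays; QC marks the quality-control sets. The middle set shows the antibody arrays at 15.1 and 17.7 and the control arrays at 36.1 and 34.3, while both ordinary Hk1 probe sets on the right overlap.

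Hk2, the hexokinase of muscle and fat that responds to insulin, was at 179.9 and 174.2 on the antibody arrays and 189.2 and 164.2 on the control arrays on M68971_at, a change of 0.0055 ± 0.17. Its other probe set, D26393exon_s_at, was at 70.1 and 71.1, against 80.8 and 68.8 (−0.07 ± 0.18). The antibody values lay between the 2 control values on both probe sets. The log2 difference of Hk2 over Hk1 within an array was −0.32 and −0.25 after the antibody and −0.19 and −0.35 in the controls, a difference of −0.02 (two-sided exact permutation test, p = 1, adjusted p = 1).

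Pfkm is the muscle form of phosphofructokinase, the enzyme of the committed step of glycolysis. On U25651_at it was at 128.1 and 127.8 on the antibody arrays and 103.9 and 127.0 on the control arrays. Both antibody values were higher than both control values, with a gap of less than 1 unit to control replicate 2, and the change was 0.14 ± 0.18 (limma, adjusted p = 0.892). On D21869_s_at it was at 79.8 and 74.7, against 75.7 and 72.1 in the controls, and the groups overlapped (0.05 ± 0.17).

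Aldoa, which splits fructose 1,6-bisphosphate, was at 869.2 and 876.2 on the antibody arrays and 859.7 and 863.2 on the control arrays. The groups did not overlap, yet the change was 0.02 ± 0.16, with a 95% interval that ran from 0.793-fold to 1.29-fold. Pkm, which makes pyruvate in the last step of glycolysis, was at 1422.0 and 1198.9 after the antibody and 1295.8 and 1275.2 in the controls. The antibody values lay on either side of both control values (0.02 ± 0.16, limma, adjusted p = 0.982). Which splice forms of Pkm the 1 probe set available here measures is not known.

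Lactate dehydrogenase interconverts pyruvate and lactate, and Ldhb encodes its heart-type subunit. On U07181_at Ldhb was at 1440.9 and 1262.2 on the antibody arrays and 1291.3 and 1167.6 on the control arrays (0.13 ± 0.16, limma, adjusted p = 0.884). On U07181_g_at it was at 1438.2 and 1248.4 after the antibody and 1497.0 and 1401.8 in the controls (−0.11 ± 0.16, adjusted p = 0.904). Both carry the same sequence accession, both overlapped between groups, and their changes had opposite signs.

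**Figure D3:**
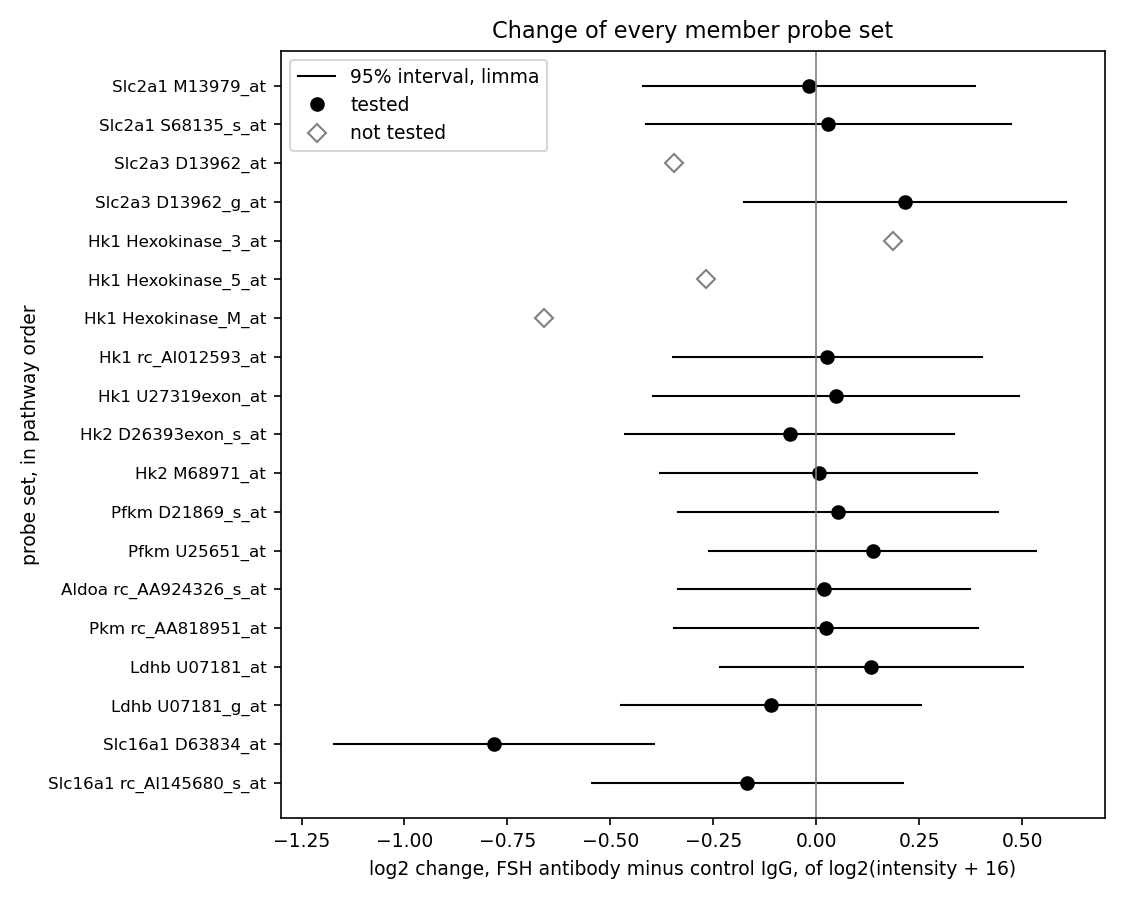
Log2 change (FSH antibody minus control IgG, of log2(intensity + 16)) of the 19 member probe sets in pathway order from top to bottom, with points for changes, bars for the 95% interval by limma on the 15 tested sets and open diamonds for the 4 not tested. Only the bar of Slc16a1 D63834_at, from −1.17 to −0.39, does not cross 0 among the tested sets.

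Slc16a1 (MCT1) carries lactate and pyruvate across the plasma membrane together with a proton. On D63834_at it was at 204.0 and 183.5 on the antibody arrays and 321.4 and 368.6 on the control arrays. Both antibody values were below both control values, at 0.562 of the control mean intensity. The log2 change was −0.78 ± 0.17 (95% interval −1.17 to −0.39), with an unadjusted p of 0.00129 by limma and an adjusted p of 0.150, so it did not pass. It was probe set number 45 of 5252 by p, and 1.12% of all tested probe sets had a change as low or lower. Without FSH antibody replicate 1 the change was −0.85 and passed (adjusted p = 0.0245), and over the other settings run it did not pass.

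The other Slc16a1 probe set, rc_AI145680_s_at, was at 394.1 and 367.5 on the antibody arrays and 405.6 and 454.5 on the control arrays. Its groups did not overlap either, but the change was −0.17 ± 0.17 (95% interval −0.54 to 0.21, limma, adjusted p = 0.860). Over all settings it ranged from −0.25 to −0.09, and D63834_at from −0.88 to −0.66. The log2 difference of D63834_at over rc_AI145680_s_at within an array was −0.90 and −0.94 after the antibody and −0.32 and −0.29 in the controls. This comparison was chosen after the values were seen. The difference between groups of −0.61 had a two-sided exact permutation p of 0.333, the smallest that 2 arrays against 2 allow.

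Bsg, the membrane protein basigin that brings MCT1 to the cell surface, was at 1785.6 and 1892.0 on the antibody arrays and 1709.1 and 1922.6 on the control arrays (0.02 ± 0.16). Slc16a3, the lactate exporter MCT4, was dim, at 49.6 and 34.8, against 31.0 and 26.1 in the controls (0.38 ± 0.22, limma, adjusted p = 0.714). Slc16a7, the transporter MCT2, was too dim to be tested, at 11.2 or less on every array.

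Summed levels of several marker lists also stood apart between the groups (brightest probe set of each gene). Of all tested probe sets, 37.4% did not overlap between the groups. By limma 0.267% were called and 8.11% had an unadjusted p under 0.05. A sum follows its brightest genes, so it does not measure the share of a cell type. The 6 Leydig cell genes summed to 1952.9 and 2118.3 on the antibody arrays and 2473.9 and 2501.2 on the control arrays, with 1 of 10 tested probe sets called, Star, lower. Values in this list went both ways, 4 of the 10 higher and 6 lower, with 2 higher and 4 lower at an unadjusted p under 0.05. The 7 skeletal muscle genes summed to 129.8 and 124.1, against 148.0 and 183.0, with 5 of the 7 below the filter and 0 of 2 tested probe sets called (limma, 1 at an unadjusted p under 0.05). The 6 endothelial genes summed to 291.1 and 353.6, against 223.7 and 222.8, and the 6 macrophage genes to 306.5 and 352.5, against 274.5 and 265.0. Among these, 0 of 6 endothelial and 0 of 8 macrophage probe sets were called by limma, with 1 and 2 at an unadjusted p under 0.05. The endothelial 1 was higher, and of the 2 macrophage ones 1 was higher and 1 lower. In the endothelial list Edn1 was at 88.1 and 89.8 on the antibody arrays and 38.3 and 34.0 on the control arrays, while Pecam1 overlapped. The sums of 16 Sertoli, 17 germ cell, 6 erythroid and 7 smooth muscle genes overlapped between the groups. Among these, limma called 1 of 20 tested Sertoli probe sets, Testin, higher (1.56 ± 0.18, adjusted p = 0.0152), and 1 of 6 erythroid ones, Alas2, lower (−1.38 ± 0.21, adjusted p = 0.0418). At an unadjusted p under 0.05 by limma there were 7 of the 20 Sertoli probe sets, 4 higher and 3 lower, and 1 of the 6 erythroid ones. Overlap of the Sertoli sums thus does not mean that each gene was unchanged. Clu alone was at 6439.6 on antibody replicate 1, where the Sertoli sum was 13894.2. Limma called 0 of 18 germ cell and 0 of 11 smooth muscle probe sets, with 0 and 0 at an unadjusted p under 0.05. Of the 18 germ cell values 6 were higher and 12 lower, with a median change of −0.28, against 0.03 for all tested probe sets. Of the 11 smooth muscle values 3 were higher and 8 lower. No marker gene was listed at 0 on its brightest probe set. The part of these markers in the Slc16a1 values was not tested.

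Promoter windows are shown for the member with the lowest change and for the member without a probe set of its own, since the cyclic AMP raised by FSH acts on genes in part through the factor CREB. The windows run from 250 bases before to 50 bases after the annotated start in RefSeq's GRCr8 assembly, and the table held 12 windows for 9 members. Slc2a3 is not among them. The Slc16a1 window lies at chr2:194812410-194812709 on the plus strand, with the E-box CACGTG in capitals, and the Ldha window at chr1:106507842-106508141 on the plus strand, with the full cyclic AMP response element TGACGTCA in capitals.
Slc16a1: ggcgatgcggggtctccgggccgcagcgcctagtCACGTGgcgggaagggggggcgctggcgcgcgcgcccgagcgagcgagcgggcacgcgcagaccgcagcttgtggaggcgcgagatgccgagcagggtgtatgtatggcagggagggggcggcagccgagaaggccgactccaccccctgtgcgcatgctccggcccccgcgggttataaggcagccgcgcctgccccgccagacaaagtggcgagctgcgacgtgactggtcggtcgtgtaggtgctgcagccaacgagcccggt
Ldha: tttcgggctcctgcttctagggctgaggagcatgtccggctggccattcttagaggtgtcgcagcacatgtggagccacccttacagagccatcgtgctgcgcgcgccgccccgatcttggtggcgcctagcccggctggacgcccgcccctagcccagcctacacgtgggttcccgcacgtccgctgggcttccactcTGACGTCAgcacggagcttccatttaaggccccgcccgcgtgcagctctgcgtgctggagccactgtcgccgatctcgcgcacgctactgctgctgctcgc

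Both strands were searched. The letters TGACGTCA were in 1 of the 12 member windows, that of Ldha, beginning 51 bases before its start, and in 1.83% of all 33469 windows. The shorter core TGACG, which each TGACGTCA holds on both strands, was in 2 of the 12, Ldha and 1 of the Hk1 starts, and in 21.2% of all windows. The letters CACGTG were in the windows of Slc16a1 and Ldha and in 6.42% of all windows. The Slc16a1 window held neither of the cyclic AMP motifs, and the letters alone do not show binding.

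Of a list of 51 other genes of glucose, pyruvate and lactate handling, 39 had a single-symbol probe set (67 probe sets) and 29 genes were tested on 42. By limma 0 of the 42 were called, against 0.267% of all tested probe sets, and 4 had an unadjusted p under 0.05, 1 higher and 3 lower, against 8.11% of all tested probe sets. Their median change was 0.03, with 22 values higher and 20 lower. The groups did not overlap for 16 of the 42, against 37.4% of all tested probe sets.

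The lowest change of the list was that of Gpd1, the cytosolic glycerol 3-phosphate dehydrogenase, which draws on a glycolytic intermediate and regenerates NAD+. It was at 47.9 and 39.3 on the antibody arrays and 113.9 and 105.9 on the control arrays, a change of −1.08 ± 0.18 that did not pass (limma, adjusted p = 0.0541). Got1, the cytosolic aspartate aminotransferase of the malate-aspartate shuttle, was at 71.6 and 70.0, against 91.1 and 109.9 (−0.42 ± 0.18, adjusted p = 0.605). Pdha1, a subunit of the pyruvate dehydrogenase complex, was at 141.7 and 137.5 on rc_AA799598_at, against 225.2 and 172.2 in the controls (−0.45 ± 0.19, adjusted p = 0.580), while its other probe set gave −0.05. For each of these 3 genes both antibody values were lower on the probe set given. They were named for their small p, so this separation follows in part from that choice.

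Slc2a4 (GLUT4), the insulin-responsive glucose transporter, had higher antibody values on both of its probe sets. On rc_AA799760_s_at it was at 38.2 and 37.3 after the antibody and 26.7 and 16.8 in the controls (0.52 ± 0.22, limma, adjusted p = 0.605), and on D28561_s_at the change was 0.42 ± 0.20. Aldoc, an aldolase known from brain, was at 71.0 and 86.3 on X06984cds_s_at, against 49.9 and 60.8 (0.41 ± 0.19, adjusted p = 0.634), and gave 0.07 on M63656_s_at. None of these passed the adjusted threshold.

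**Figure D4:**
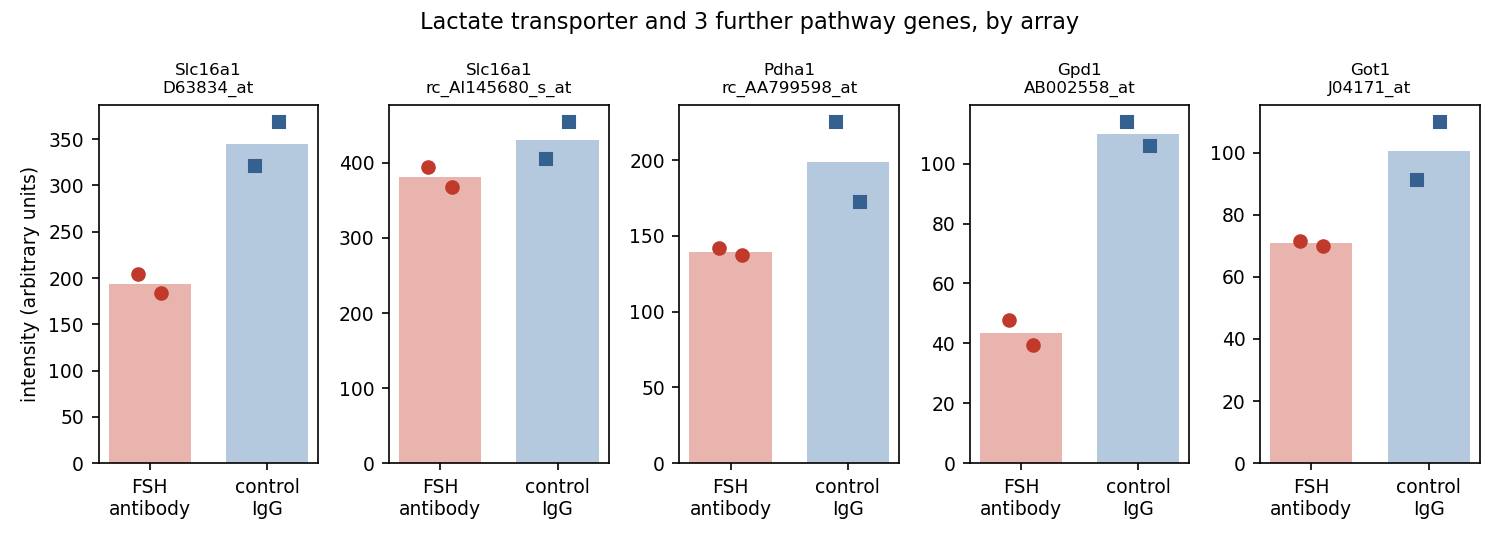
Intensity (arbitrary units, axes from 0) of both Slc16a1 probe sets, Pdha1, Gpd1 and Got1, with bars for the group mean and points for the 2 arrays of each group, FSH antibody left and control IgG right. Both antibody points lie below both control points in each panel, and Gpd1 shows 47.9 and 39.3 against 113.9 and 105.9. Slc2a4 and Aldoc, also named for their small p, had positive changes and are not shown.

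Gapdh, whose single-symbol probe sets are all quality-control sets, was at 1671.4 and 1526.0 on its 3′ set after the antibody and 1676.0 and 1671.2 in the controls (−0.07). Pgk1, the phosphoglycerate kinase, was at 132.1 and 134.4 on M31788_g_at, against 132.5 and 127.6 (0.03 ± 0.17), and gave −0.15 ± 0.19 on rc_AA892797_at. Ldhc, the lactate dehydrogenase of germ cells, was at 143.6 and 41.3 on the antibody arrays and 41.6 and 333.6 on the control arrays (−0.57 ± 0.71, limma, adjusted p = 0.890). The groups overlapped widely. The ratio between the 2 control arrays was 8.02 for Ldhc, whereas among the 15 tested member probe sets the largest ratio between arrays of 1 group was 1.39, that of Slc2a1 S68135_s_at in the controls.

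**Figure D5:**
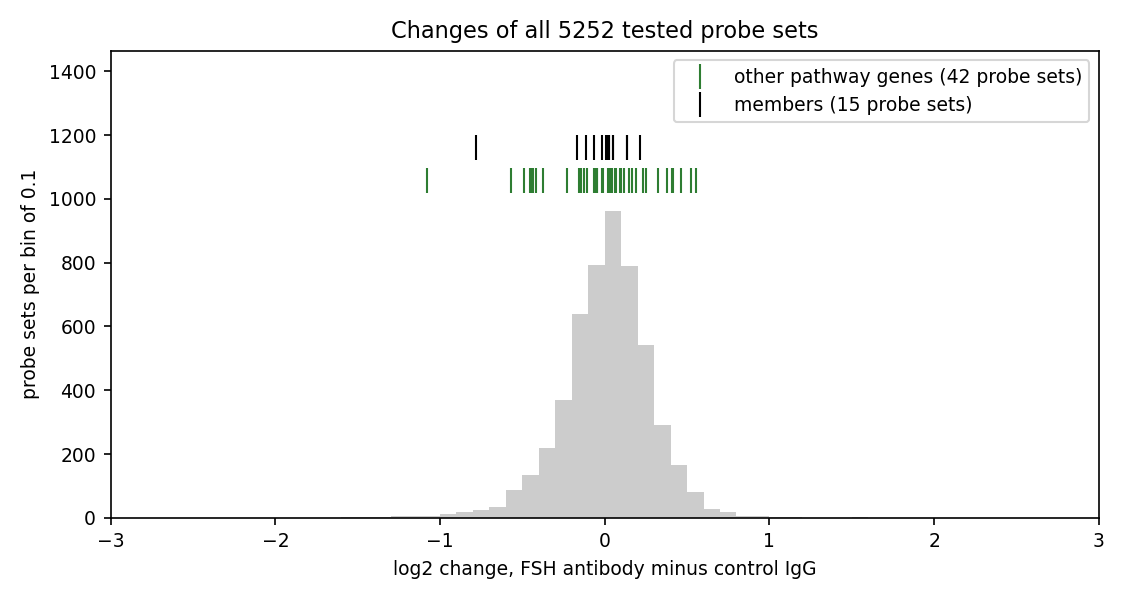
Number of probe sets per bin of 0.1 in log2 change (FSH antibody minus control IgG) for all 5252 tested probe sets, with ticks above for the 15 member probe sets (upper row) and the 42 probe sets of other pathway genes (lower row). All member ticks but that of Slc16a1 D63834_at at −0.78 lie between −0.17 and 0.21, and the lowest pathway tick is Gpd1 at −1.08.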

How the data were processed

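The authors deposited linear intensities, 1 per probe set and array. Neither their software nor their scaling step is given in the sources used here. The mean left after removing 2% of probe sets at each end was 125.2 on all 4 arrays, which shows a common scale. Background correction and detection calls are unknown. Source names set the groups. Symbols came from the platform annotation, updated by Entrez identifier with RefSeq genes (GRCr8): 7018 probe sets had 1 symbol, 308 several and 1473 none. The 59 control probe sets were left out. Values were analysed as log2(intensity + 16), keeping the 5252 probe sets at or over the 40th percentile of the mean (5.30). The test was limma 3.58.1 in R 4.3.3 (lmFit, then eBayes with its intensity trend), two-sided, with a Benjamini-Hochberg threshold of 0.05. It was run on data simulated from its own fitted model, which checks the procedure and cannot show how well that model holds on these arrays. Median log2 values of the arrays differed by at most 0.103. Named genes were all member probe sets, the 5 other pathway symbols with the smallest p, and Ldhc, Pgk1, Gapdh, Slc16a7, Slc16a3, Bsg and Inha, with up to 2 markers per cell type. Some further genes were named after their values were seen. Alternatives were quantile normalization, median centring, constants of 1 and 64, no filter or the 60th percentile, no trend, leaving out each array and a replicate block. A further setting, not planned, added the Hk1 and Gapdh quality-control sets to the test. The members and lists were chosen with earlier results of these data known. No genome build is named for the files, so positions are given for promoter windows alone.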

Additional observations from a re-analysis of the deposited data

How the results depend on the processing

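The settings compared here include the fit with the Hk1 and Gapdh quality-control sets added, which left every tested member's change as it was. A tested member's change was compared with an alternative setting 195 times. Of these comparisons, 178 kept their direction and side of the threshold, 16 turned direction and 1 came to pass. Of the 15 probe sets, 7 kept their direction in every setting run. What caused these changes was not tested, apart from the construction of the alternatives: a filter alters how many probe sets enter, and with 3 arrays only 1 residual degree of freedom remains and the single array of a group is taken to vary as the pair does. How far members stand over background is unknown, as there are no detection calls. Median centring turned Slc2a1 S68135_s_at (−0.0188), Hk1 rc_AI012593_at (−0.0215), Hk2 M68971_at (−0.0422), Aldoa (−0.0293) and Pkm (−0.0253). Leaving out each array in turn gave −0.112 to 0.0738 for Slc2a1 M13979_at, −0.200 to 0.257 for Slc2a1 S68135_s_at, −0.0299 to 0.0821 for Hk1 rc_AI012593_at, −0.152 to 0.248 for Hk1 U27319exon_at, −0.161 to 0.0303 for Hk2 D26393exon_s_at, −0.0882 to 0.0992 for Hk2 M68971_at and −0.0993 to 0.144 for Pkm. It gave −0.102 to 0.0609 for the Hk2 minus Hk1 difference and −0.0238 to 0.396 for Slc2a3 minus Slc2a1. Ldhb minus Ldha was not run, since Ldha has no single-symbol probe set.

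Against 14 called probe sets on the whole array, 0 were called with quantile normalization and 0 with no filter by limma (423 and 702 at an unadjusted p under 0.05), 4 with median centring, and 0 to 154 without 1 array. Of the member probe sets 0 were called (1 at an unadjusted p under 0.05), and 0 to 1 without 1 array, the 1 being Slc16a1 D63834_at without FSH antibody replicate 1. The replicate numbers of the labels do not pair the arrays (correlation of same-numbered deviations 0.0039). With the replicate number as a block 39 probe sets passed, 0 of them members.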

Other observations

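Probe sets of the pyruvate dehydrogenase complex, which feeds pyruvate into the mitochondrial citric acid cycle, differed in their spread between arrays of 1 treatment; those given here were chosen after their values were seen. Pdhb, a subunit of pyruvate dehydrogenase, was at 361.9 and 189.5 on the antibody arrays and 316.5 and 417.0 on the control arrays on rc_AA892828_at (−0.45 ± 0.27, limma, adjusted p = 0.745). Its other probe set was at 81.2 and 36.2, against 63.8 and 109.3. Pdha2, the germ cell form of the alpha subunit, was at 92.2 and 49.3 after the antibody and 79.6 and 118.8 in the controls (−0.43 ± 0.27, adjusted p = 0.738). The Dlat subunit had a narrower spread, at 269.8 and 255.7 on D10655_at after the antibody and 234.1 and 254.2 in the controls, ratios between arrays of 1 group of 1.06 and 1.09. On each of the Pdhb and Pdha2 probe sets antibody replicate 2 was the lowest array and control replicate 2 the highest. The germ cell genes Ldhc and Hspa2 were also highest in control replicate 2, with Hspa2 at 358.1 and 142.6 on the antibody arrays and 150.1 and 505.9 on the control arrays. So were the germ cell genes Spa17, Ddx4, H2bc1, Sycp3, Acr, Odf2 and Prm2. Among tested germ cell genes, Sycp1, Kit, Tnp1 and Adam2 went the other way. Sycp1 was at 98.4 and 100.1 on the antibody arrays and 143.1 and 87.0 on the control arrays, lowest in control replicate 2. Kit was also lowest there on each of its probe sets. Mdh1, a malate dehydrogenase, was at 644.9 and 572.8, against 553.5 and 730.5.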
